A study of Mus musculus with 48 samples.

Results

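Nr1d1, Nr1d2 and Rora encode the nuclear receptors REV-ERBα, REV-ERBβ and RORα, and their liver transcripts were followed over 6 times of day in mice with and without an aP2-Cre driven deletion of the clock gene Bmal1. They are 3 of the 22354 genes in the deposited count table, taken by symbol, and 3 of the 13646 genes that passed the filter on low counts. KO mice carried a floxed Bmal1 allele on both copies (Bmal1 fx/fx) and aP2-Cre, a driver used for fat cells, and WT mice were their littermate controls without a stated deletion. Both were C57BL/6 mice aged 4 to 6 months, kept with food and water freely available, held in constant darkness for 36 h and killed in darkness at 0, 4, 8, 12, 16 or 20 h. There were 23 KO and 25 WT mice, with 1 liver library each. All groups held 4 mice except 16 h, with 3 KO and 5 WT mice by the labels, against 4 of each in the design text.

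REV-ERB and ROR proteins bind the same DNA element, the ROR response element or RORE, in the promoters of Arntl (the symbol of Bmal1) and other clock genes. REV-ERBs have heme as their ligand and repress by recruiting the corepressor NCOR1 with the histone deacetylase HDAC3, whereas RORα activates. BMAL1 with CLOCK or NPAS2 in turn activates Nr1d1 and Nr1d2 through E-box elements, which closes the second loop of the mammalian clock. In liver, REV-ERBα and RORα are also known as regulators of lipid and glucose metabolism.

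Nr1d1 (ENSMUSG00000020889) lies at mm9 chromosome 11, 98629246 to 98636647, Nr1d2 (ENSMUSG00000021775) at chromosome 14, 19036568 to 19071641, and Rora (ENSMUSG00000032238) at chromosome 9, 68501593 to 69236053. The first 2 are on the minus strand and Rora on the plus strand in GENCODE M21. The start regions of Nr1d1 and Nr1d2 are shown because their transcripts cycled together, and that of Arntl because it holds the element through which the receptors act on the clock. Each is a RefSeq window of 300 bases around a gene start (GRCm38.p6): Nr1d1 at chr11:98775328-98775627 on the minus strand, Nr1d2 at chr14:18239057-18239356 on the minus strand, and the second of 2 Arntl starts at chr7:113207261-113207560 on the plus strand. Capitals mark every match, on either strand, to the motifs named in the next paragraph.
Nr1d1: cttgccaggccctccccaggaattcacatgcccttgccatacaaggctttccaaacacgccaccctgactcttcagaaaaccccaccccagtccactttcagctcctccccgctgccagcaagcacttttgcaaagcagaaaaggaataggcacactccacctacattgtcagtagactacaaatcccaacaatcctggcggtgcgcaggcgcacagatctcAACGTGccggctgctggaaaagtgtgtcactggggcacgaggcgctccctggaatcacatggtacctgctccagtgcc
Nr1d2: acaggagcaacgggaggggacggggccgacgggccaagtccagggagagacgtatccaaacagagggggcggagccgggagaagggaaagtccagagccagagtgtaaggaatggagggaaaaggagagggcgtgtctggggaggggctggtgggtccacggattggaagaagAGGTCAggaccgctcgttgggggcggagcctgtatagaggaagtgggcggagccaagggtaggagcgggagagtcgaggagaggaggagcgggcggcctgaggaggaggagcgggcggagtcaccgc
Arntl: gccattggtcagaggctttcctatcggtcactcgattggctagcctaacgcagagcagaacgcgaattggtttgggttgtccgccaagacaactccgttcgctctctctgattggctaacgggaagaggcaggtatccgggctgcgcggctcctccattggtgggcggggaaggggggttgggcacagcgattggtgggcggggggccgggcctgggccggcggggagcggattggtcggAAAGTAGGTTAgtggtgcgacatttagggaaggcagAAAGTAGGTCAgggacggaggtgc

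The Nr1d1 window held 1 match to the E-box variant CACGTT, read as AACGTG 28 bases before the start, and such a match was found in 4.68% of 32851 promoter windows of this length. The Nr1d2 window held 1 receptor core AGGTCA, 77 bases before the start (16.3% of windows). The Arntl window held 2 copies of its RORE, as AAAGTAGGTTA from 10 bases before and AAAGTAGGTCA from base 27 after the start. That motif, these letters with any base at the last position but 1, was written with the known Arntl elements in view and occurred in 0.0609% of windows. The second copy overlaps matches to a general RORE core, which is A, 2 bases of any kind, T, 1 base of any kind and GGTCA (2.46% of windows), and to AGGTCA. None of the windows shown held the E-box CACGTG (7.15% of windows) or the D-box TTATGNAA (3.38%), and the Rora window held none of the 6 motifs. A match describes the letters in these windows and no binding was measured.

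All libraries had close to equal totals, 12841969 to 13009797 counts without albumin. Hepatocyte markers summed to 19600 to 43500 CPM (a gene's counts scaled to library size, with TMM factors) in KO and 25000 to 43500 CPM in WT. The labels name adipocyte as cell type, but 6 adipocyte markers together reached only 3.68 to 14.6 CPM in KO and 4.25 to 17.4 CPM in WT livers. In bulk liver, fewer cells of a type and less RNA per cell cannot be told apart. Every library held 3029 to 13969 counts of Xist and at most 1 count of each of 3 Y-linked genes, while the design text calls the mice male. Summed markers of pancreas reached 194 CPM in KO_0h replicate 2, those of adrenal cortex 71 CPM in WT_0h replicate 3 and those of lymphocytes 1230 CPM in WT_16h replicate 5, each the highest of all libraries. Arntl, the targeted gene, ranged from 1.58 to 37 CPM over the KO livers and from 0.819 to 43.8 CPM over the WT livers. Counts per gene do not measure the floxed exons separately, and the driver is one for fat cells, so these levels do not check the deletion.

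The libraries also differed in how read counts depended on base composition, and this bears on the members because their transcripts lie at opposite ends of that scale. For each library, the deviation of each gene from its mean was regressed on the GC content of the gene's longest transcript, which gave slopes between −0.80 and 0.61 log2 units per 10 percentage points of GC. The first principal component of the variation within groups held 52% of the variance and had an absolute correlation of 0.993 with this slope. The Nr1d1 transcript has 56.8% GC, above 86.7% of the genes, whereas Nr1d2 has 41.8% and Rora 40.9%, above 11.6% and 8.67%. Across the 48 livers, after group means were removed, Nr1d1 correlated with the slope at r = 0.85 (rho 0.85, r = 0.81 without the 2 libraries farthest out), Nr1d2 at −0.73 (rho −0.67, −0.70 without them) and Rora at −0.89 (rho −0.85, −0.87 without them). Each had a permutation p of 1e-05, the smallest that 100000 shuffles within groups can give, also after adjustment over the 3 relations. The same signs were seen within each genotype (KO 0.80, −0.66 and −0.87, n = 23; WT 0.90, −0.81 and −0.91, n = 25). Whether the slope arose in the livers or in the handling of the RNA and libraries was not tested. Each result below is given from the fit without a GC term, and values with the slope as a covariate, an alternative added after the data were seen, are given as such.

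**Figure D1:**
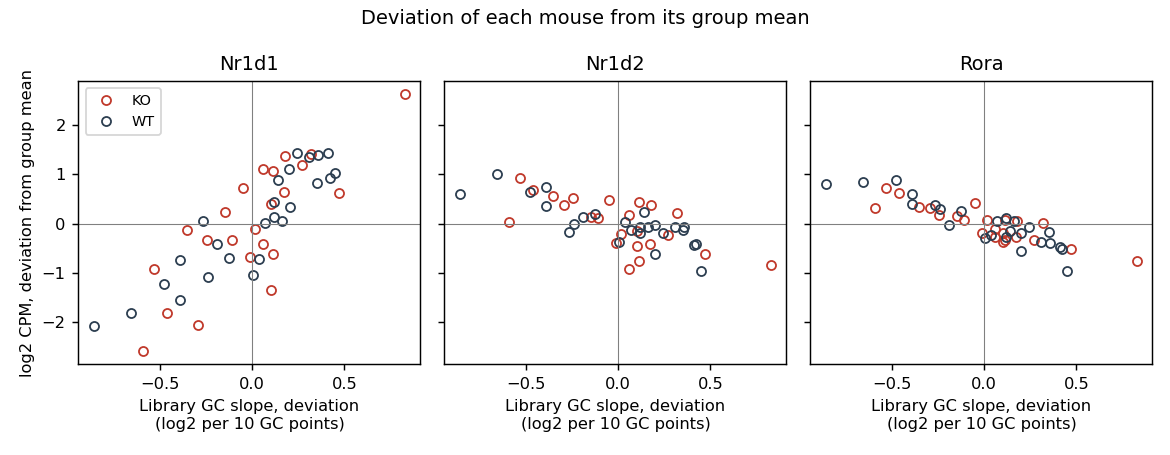
Deviation of each liver from its group mean in log2 CPM (y axis) against the deviation of its library's GC slope (x axis, log2 units per 10 percentage points of GC), 1 panel per gene and 1 point per mouse, KO red and WT dark blue. Nr1d1 rises with the slope (r = 0.85), whereas Nr1d2 (−0.73) and Rora (−0.89) fall.

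Nr1d1 was the member with the widest daily swing, with the highest group means at 4 and 8 h in both genotypes and the lowest at 16 and 20 h in KO and at 0 and 20 h in WT. The KO livers taken at 0 h held 15.6, 1.60, 18.8 and 5.31 CPM, those taken at 4 h held 116, 11.7, 5.18 and 16.9 CPM, and those taken at 8 h held 39.7, 11.8, 35.7 and 50.2 CPM. Later, KO livers held 4.90, 4.00, 5.73 and 13.3 CPM when taken at 12 h, then 4.23, 4.96 and 0.163 CPM when taken at 16 h, then 4.42, 2.18, 1.39 and 4.45 CPM when taken at 20 h. The KO median was highest at 8 h and lowest at 20 h, 1 liver at 4 h stood far above its group, and the lowest liver, at 16 h, held 2 counts and had a GC slope of −0.74. The WT livers taken at 0 h held 9.53, 2.12, 2.13 and 3.67 CPM, those taken at 4 h held 186, 79.7, 55 and 34.3 CPM, and those taken at 8 h held 80.6, 12.5, 50.9 and 37.7 CPM. Later, WT livers held 9.42, 6.66, 32 and 30 CPM when taken at 12 h, then 12.1, 1.42, 6.76, 11.5 and 8.23 CPM when taken at 16 h, then 10.1, 0.917, 1.69 and 10 CPM when taken at 20 h. The WT median was highest at 4 h (67.3 CPM) and lowest at 0 h (2.90 CPM), and the mice of groups next to each other in this order overlapped, as they did in KO. The highest group mean was 12-fold above the lowest in KO and 20.3-fold above it in WT.

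Nr1d2 followed with a later and narrower rise. In KO, the mice of the 0 h group had 24.1, 27.9, 27.8 and 11.2 CPM, the mice of the 4 h group 68.2, 93.4, 198 and 182 CPM, and the mice of the 8 h group 139, 114, 170 and 216 CPM. The 12 h group had 168, 69, 101 and 160 CPM in its mice, the 16 h group 69.9, 95.7 and 83.6 CPM in its mice, and the 20 h group 18.9, 31.9, 55.4 and 22.1 CPM in its mice. The KO mice of 16 h all lay above those of 20 h, and the other groups next to each other by median overlapped. In WT, the mice of the 0 h group had 20.2, 21.6, 24.1 and 18.7 CPM, the mice of the 4 h group 65, 65.1, 75.2 and 68.5 CPM, and the mice of the 8 h group 177, 231, 160 and 166 CPM. The 12 h group had 205, 191, 62.5 and 92.3 CPM in its mice, the 16 h group 90.8, 118, 74, 70.7 and 50.9 CPM in its mice, and the 20 h group 35.1, 80.5, 30.6 and 29.3 CPM in its mice. The WT mice of 20 h lay above those of 0 h without overlap, and other neighbours by median overlapped. The highest group mean exceeded the lowest 7.05-fold in KO and 8.67-fold in WT.

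Rora stayed within a narrow band. Over the 6 times in order, its KO group means were 72.8 ± 12.9, 105 ± 41.5, 93.2 ± 22.7, 94.6 ± 13.9, 116 ± 26.1 and 87.2 ± 34.8 CPM (SD, n = 4, but 3 for the 16 h group). The WT group means in the same order were 70.4 ± 17.7, 68.1 ± 12.9, 107 ± 22.9, 94.6 ± 52.6, 92.7 ± 36 and 101 ± 46.2 CPM (SD, n = 4, but 5 for the 16 h group). Single livers lay between 57.9 and 152 CPM in KO and between 42.7 and 169 CPM in WT, and groups next to each other by median overlapped in both genotypes. The ratio of the highest to the lowest group mean was 1.59 in KO and 1.57 in WT.

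**Figure D2:**
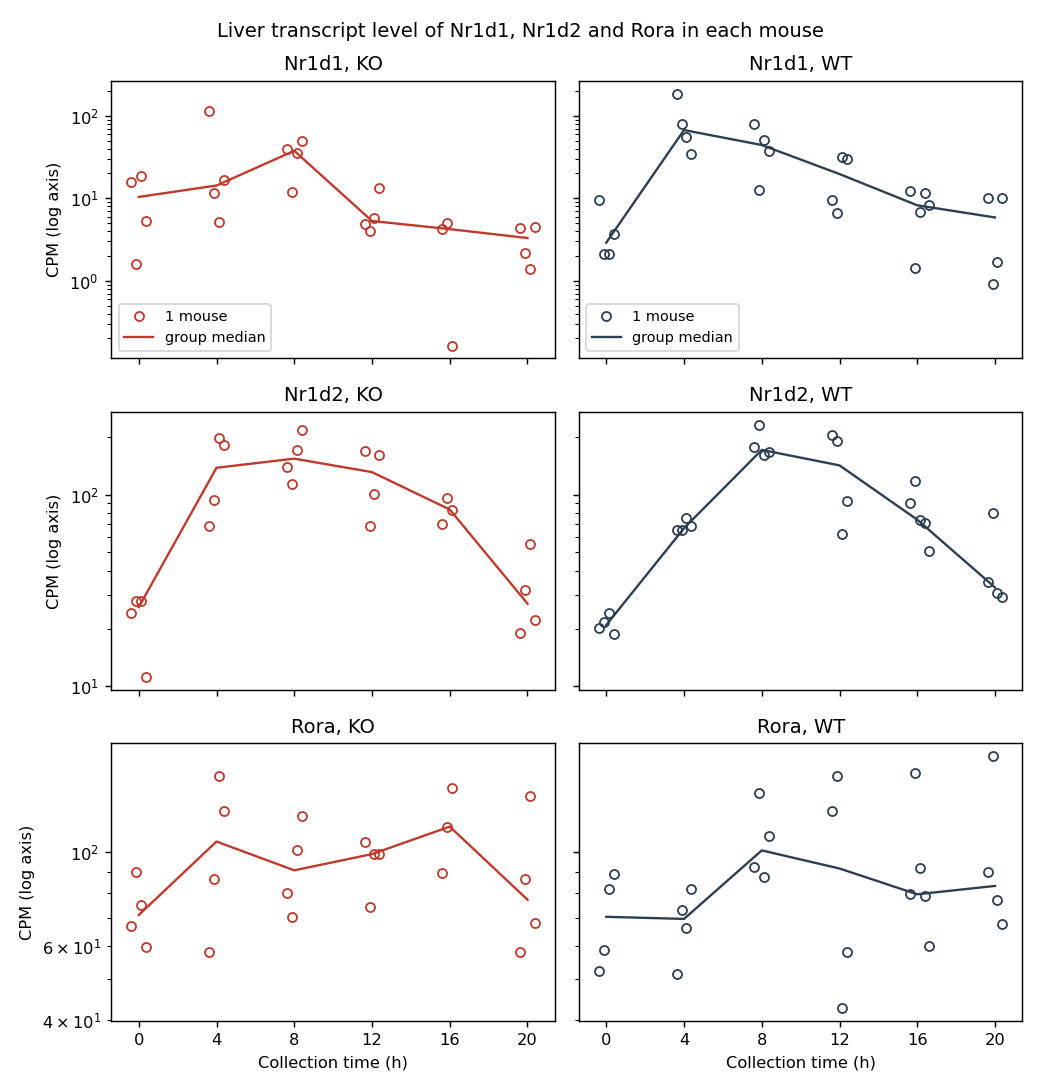
Level of each gene in every liver (points, CPM on a log axis) by collection time in hours, with the group median as a line, KO panels left and WT panels right. Nr1d1 (top) and Nr1d2 (middle) rise and fall in both genotypes, with group means up to 12-fold and 20.3-fold apart for Nr1d1, whereas Rora (bottom) spans 1.59-fold in KO and 1.57-fold in WT.

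The rhythm tests separated both REV-ERB genes from Rora. In a model with a 24 h cosine and sine for each genotype, 2 of the 3 members passed in KO and 2 of 3 in WT, where 17% of all genes passed in KO and 16.3% in WT. Nr1d1 passed in both (edgeR adjusted p = 0.000458 in KO and 0.000129 in WT), as did Nr1d2 (9.13e-06 in KO and 2.29e-06 in WT). Rora did not (0.660 in KO and 0.391 in WT), with 0 of 2 tests at an unadjusted p under 0.05 and none past the threshold by DESeq2. With the GC covariate, under which 21.3% of genes passed in KO and 29.7% in WT, Rora passed in WT (0.0209) and not in KO (0.0784), at amplitudes of 0.19 ± 0.07 in KO and 0.20 ± 0.06 in WT. The fitted amplitude, the log2 distance from mean to peak, was 1.90 ± 0.41 (SE) in KO and 2.04 ± 0.39 in WT for Nr1d1, 1.42 ± 0.18 in KO and 1.37 ± 0.18 in WT for Nr1d2, and 0.17 ± 0.14 in KO and 0.19 ± 0.13 in WT for Rora. The fitted peak to trough ratio of Nr1d1 was 13.9 in KO and 16.9 in WT, and with the GC covariate 28.2 in KO and 27.9 in WT. The amplitude of Nr1d2 was 1.16 ± 0.14 in KO and 1.24 ± 0.14 in WT with the covariate. Ranked by amplitude among the 11986 genes that averaged 1 CPM or more, Nr1d1 was number 8 in both genotypes, Nr1d2 number 36 in KO and 48 in WT, and Rora number 8296 in KO and 6705 in WT.

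Nr1d1 peaked before Nr1d2 in both genotypes. The fitted peak of Nr1d1 was at 5.92 ± 0.79 h in KO and 7.31 ± 0.72 h in WT, and that of Nr1d2 at 9.39 ± 0.52 h in KO and 10.35 ± 0.49 h in WT, counted from the first collection time. The Nr1d2 peak thus followed by 3.47 h in KO and 3.04 h in WT, and the Arntl peak came 14.98 h after that of Nr1d1 in KO and 14.87 h in WT. A spacing of 4 h between collections sets the resolution, and no peak is given for Rora, whose amplitude was near its error.

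Both REV-ERB genes had an earlier fitted peak in KO, but their rhythms did not pass the test of a difference. The KO minus WT peak time was −1.40 ± 1.07 h for Nr1d1 and −0.97 ± 0.71 h for Nr1d2 (−0.86 ± 0.56 h and −1.07 ± 0.62 h with the GC covariate). The test of a rhythm difference called 0 of 3 members, at adjusted p = 1 for each by edgeR, 0 at an unadjusted p under 0.05 and 0 by DESeq2, against 0.00733% of all genes called. The same direction was seen in other clock genes: of 18 genes, the 3 members and the listed RORE, E-box and D-box clock genes, 11 passed both rhythm tests and averaged 1 CPM or more, and all 11 had an earlier fitted peak in KO (median −0.97 h, range −1.61 to −0.31 h). Among all 1263 such genes, 73.2% had an earlier peak in KO, with a median of −0.74 h. With the GC covariate, 12 of 15 clock genes and 69.5% of 1956 genes were earlier. These genes were measured in the same livers, so the counts are a description and not repeated evidence. Arntl, for instance, peaked at 20.90 ± 0.45 h in KO and 22.18 ± 0.32 h in WT.

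**Figure D3:**
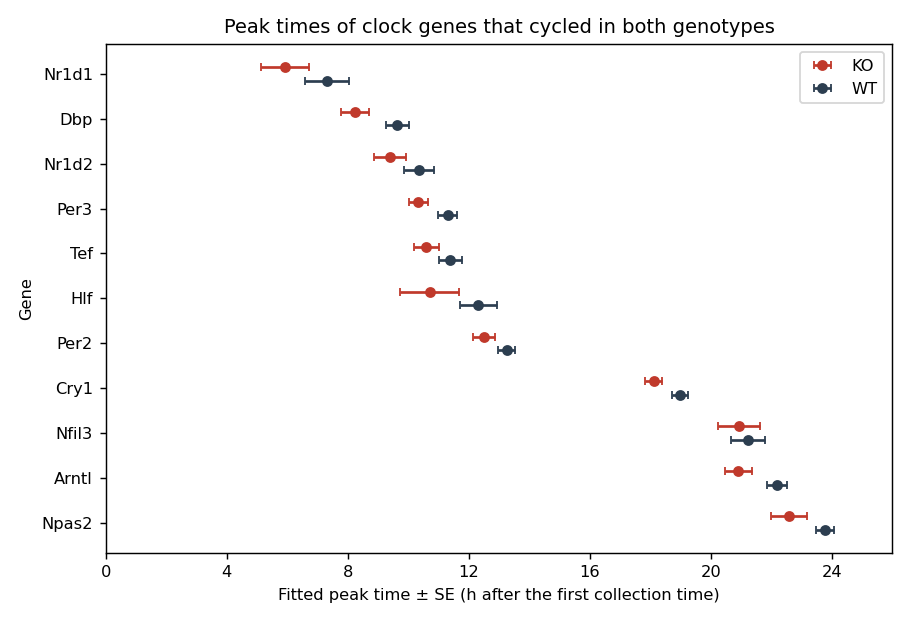
Fitted peak time in hours after the first collection time (x axis, ± SE) of the 11 clock genes that passed the rhythm test in both genotypes, KO in red above WT in dark blue. Each fitted peak is earlier in KO, by 0.31 to 1.61 h, but no rhythm difference of these genes passed by edgeR.

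In the fit without a GC term, the steps between consecutive times that passed for a member all lay between 0 and 4 h. Of 12 steps per gene (5 within the series and 0 h against 20 h, in each genotype), 1 was called for Nr1d1, 1 for Nr1d2 and 0 for Rora. Over all genes, the KO steps in order of time from 4 h against 0 h to 0 h against 20 h called 5.55%, 0.0733%, 0%, 0.176%, 0% and 0.0586%, and the WT steps 0.0586%, 0.66%, 0.0147%, 0.22%, 0.066% and 0.0293%. Nr1d2 rose at 4 h relative to 0 h in KO by 2.57 ± 0.38 on the log2 scale (edgeR adjusted p = 0.000127), in a step in which 5.55% of all genes were called. With the GC covariate this rise was 1.93 ± 0.27 (edgeR adjusted p = 3.21e-05). In WT the same step was 1.69 ± 0.37 (adjusted p = 0.0724) and 0.0586% of genes were called. It passed by DESeq2 (0.00714) and with the GC covariate (0.000212). Nr1d1 rose in WT by 4.34 ± 0.92 (adjusted p = 0.0450), but this call was lost when any of 31 of the 48 libraries was left out, among them 7 of the 8 compared, with changes between 3.69 and 5.06. It passed more clearly by DESeq2 (0.000717) and with the GC covariate (4.19 ± 0.48, adjusted p = 8.96e-07; 0.103% of genes called). The KO step of Nr1d1 was 1.86 ± 0.82 (adjusted p = 0.137), and 0.12 ± 0.79 (0.914) without KO_4h replicate 1. At 8 h against 4 h in WT, Nr1d2 rose by 1.42 ± 0.37 and came close to the threshold (edgeR adjusted p = 0.0567). With the GC covariate that rise was 0.92 ± 0.26 (0.0978).

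With the GC covariate, 5 steps of Nr1d1 and 3 of Nr1d2 passed, and 0 of Rora. Nr1d1 then rose at 4 h against 0 h in KO by 2.70 ± 0.46 (edgeR adjusted p = 0.00115; 1.21% of genes called), and fell at 12 h against 8 h in both genotypes, at −2.45 ± 0.44 in KO (0.0266; 0.00733% called) and −2.29 ± 0.44 in WT (0.0143; 0.044% called). It fell further at 16 h against 12 h in WT by 1.75 ± 0.43 (0.0316; 1.13% called). Nr1d2 fell at 20 h against 16 h in WT by 1.15 ± 0.24 (0.0223; 0.388% called), and the same step in KO was −1.24 ± 0.27 (0.0507).

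The level of the members did not differ detectably by genotype when averaged over the day. The mean KO minus WT log2 change was −0.69 ± 0.34 for Nr1d1 (edgeR adjusted p = 0.295, unadjusted 0.0511). It was 0.06 ± 0.15 for Nr1d2 (adjusted 0.859) and 0.10 ± 0.13 for Rora (adjusted 0.697). None of the 3 members passed, with 0 at an unadjusted p under 0.05 and 0 by DESeq2, where 1.40% of all genes did. Over all 13646 genes, 2336 had an unadjusted p under 0.05 and DESeq2 called 356. With the GC covariate the changes were −0.14 ± 0.20, −0.12 ± 0.11 and −0.07 ± 0.07, so the signs of Nr1d2 and Rora turned. Without KO_4h replicate 1 and without the covariate, Nr1d1 was at −0.98 ± 0.32 (edgeR adjusted p = 0.0681). The genotype by time interaction had an adjusted p of 0.953 for each member and called 0.00733% of all genes. No member had an unadjusted interaction p under 0.05, and DESeq2 called none.

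At single times no member passed either. The test at one time called 0.0147% of genes at 0 h, 0.0366% at 4 h, 0.022% at 16 h and 0% at 8, 12 and 20 h, where 248, 600 and 251 genes had an unadjusted p under 0.05 and DESeq2 called 2, 3 and 0 genes. At 4 h, Nr1d1 was at −1.25 ± 0.80 (edgeR adjusted p = 0.324), Nr1d2 at 0.98 ± 0.36 (0.141, unadjusted p = 0.0101, the single one under 0.05 among the 18 member tests) and Rora at 0.63 ± 0.33 (0.233). DESeq2 called none of the 18. At 4 h, 3 of 4 KO livers were below every WT liver in Nr1d1, and the same 3 were above every WT liver in Nr1d2. KO_4h replicate 1, with 116 CPM of Nr1d1 and 68.2 CPM of Nr1d2, was not among them. Set against the WT mouse of the same number, KO was lower in Nr1d1 and higher in Nr1d2 and Rora in all 4 pairs, replicate 1 included. This is a description, since what the numbers stand for is not given and pairs were described at 4 h only. With the replicate block, the changes at 4 h were −1.93 ± 0.62 for Nr1d1 (edgeR adjusted p = 0.140), 0.85 ± 0.35 for Nr1d2 (0.156) and 0.56 ± 0.32 for Rora (0.257). The library of KO_4h replicate 1 had a GC slope of 0.49, while the other 3 had slopes of −0.35, −0.80 and −0.69 and the WT libraries of 4 h lay between −0.03 and 0.52.

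The calls at 4 h turned on that single liver. Without KO_4h replicate 1, Nr1d1 was lower in KO, at −2.97 ± 0.86 (edgeR adjusted p = 0.0191), and Nr1d2 higher, at 1.21 ± 0.37 (0.0229), in a comparison that then called 3354 genes instead of 5. With the GC covariate and without this liver, the changes were −0.35 ± 0.57 (0.832) for Nr1d1 and 0.33 ± 0.31 (0.687) for Nr1d2, and 1 gene was called. With the covariate and all livers they were −0.28 ± 0.45 and 0.30 ± 0.26, with 0 genes called. The largest difference with the covariate was that of Nr1d1 at 0 h, 1.21 ± 0.46 (adjusted p = 0.342), where KO livers ran from 1.60 to 18.8 CPM and WT livers from 2.12 to 9.53 CPM and overlapped.

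**Figure D4:**
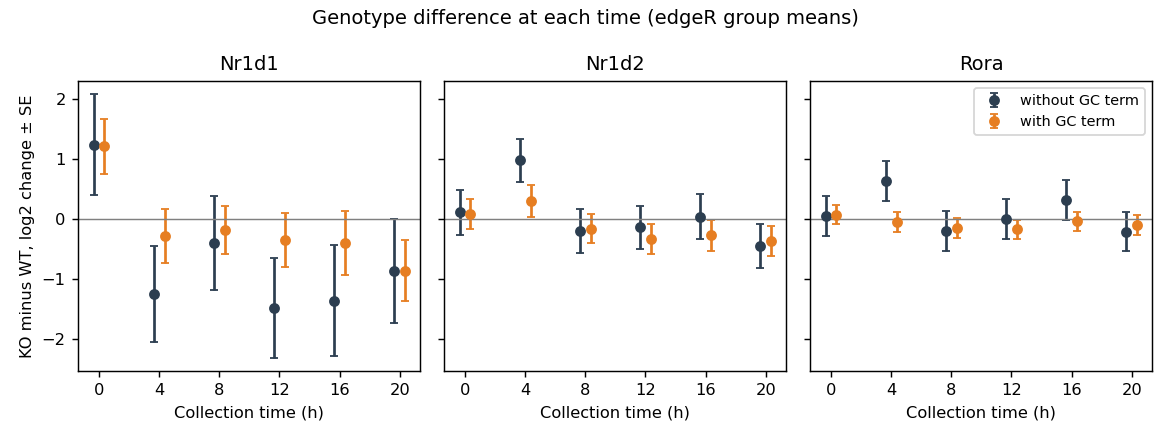
KO minus WT log2 change ± SE (y axis) of each gene at each collection time in hours (x axis), from the edgeR group means without a GC term (dark blue) and with it (orange). None passed the threshold, and the values at 4 h lie nearer 0 with the GC term (Nr1d1 −1.25 against −0.28, Nr1d2 0.98 against 0.30, Rora 0.63 against −0.05).

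Between livers of the same group, the levels of the receptor genes were correlated, and the sign of that relation for Nr1d1 turned with the GC term. Over 48 livers with group means removed, Nr1d1 and Nr1d2 had r = −0.40 (permutation p = 0.0145, adjusted over 6 relations 0.0177; rho −0.36, p = 0.0262, adjusted 0.0315; r = −0.37 without the 2 livers farthest out). It was −0.20 in KO (n = 23) and −0.66 in WT (n = 25), and the call was lost without KO_4h replicate 1 (r = −0.33, adjusted permutation p = 0.0553). With the GC slope also removed, the same pair had r = 0.58 (permutation p = 0.00036, adjusted 0.00108; rho 0.57; 0.62 without the 2 farthest). Nr1d1 and Rora had r = −0.64 as measured (permutation p = 3e-05, adjusted 9e-05; rho −0.58) and 0.47 with the slope removed (adjusted 0.00572). As measured, this pair did not pass in KO (r = −0.50, adjusted permutation p = 0.0553; −0.32 without its 2 farthest livers). In WT it passed (r = −0.77, adjusted permutation p = 0.00057). Nr1d2 and Rora stayed positive, at r = 0.87 (adjusted permutation p = 6e-05; rho 0.85) before and 0.71 (adjusted 6e-05; rho 0.67) after.

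**Figure D5:**
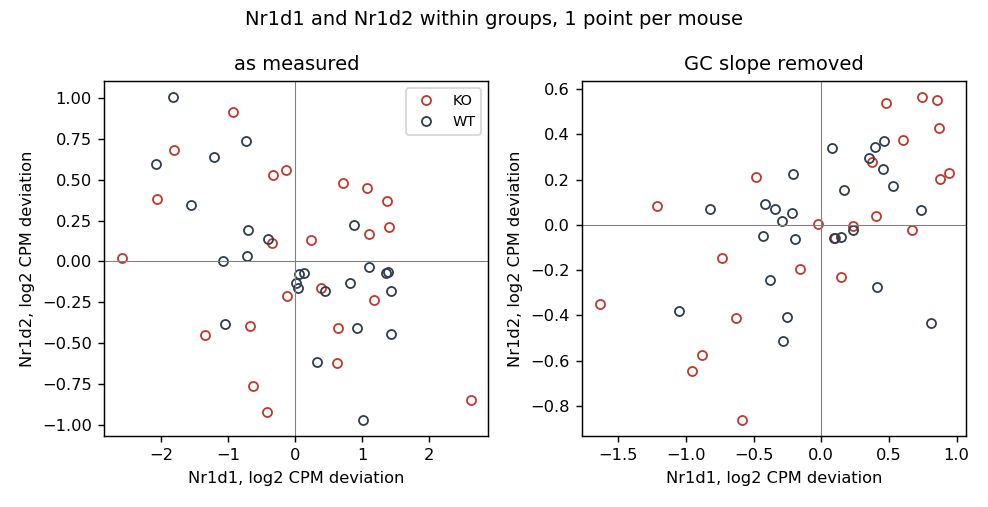
Nr1d2 (y axis) against Nr1d1 (x axis), both as log2 CPM deviations from the group mean, 1 point per liver, KO red and WT dark blue. As measured (left) the relation is negative (r = −0.40), and with the library's GC slope removed (right) it is positive (r = 0.58).

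Within groups, Arntl was lower in livers with more Nr1d2, and a regulatory link was not tested. The pair had r = −0.48 (permutation p = 0.00304, adjusted 0.00608; rho −0.43, adjusted 0.0220; −0.48 without the 2 farthest), and −0.43 (adjusted 0.0297; rho −0.35, adjusted 0.0706) with the GC slope removed. Within a genotype it did not pass after adjustment (KO −0.47, adjusted permutation p = 0.0553; WT −0.51, 0.0611), and the WT value was −0.22 without its 2 farthest livers. Arntl and Rora had r = −0.35 (permutation p = 0.0148, adjusted 0.0177), which was −0.26 (adjusted 0.146) with the slope removed. Arntl and Nr1d1 had r = 0.04 (permutation p = 0.776, adjusted 0.776), and −0.37 (adjusted 0.0334) with the slope removed, where rho was −0.27 (adjusted 0.108) and did not pass. Over the 12 group means, Arntl ran opposite to Nr1d2 (r = −0.86) and to Nr1d1 (−0.59), a description in which time of day is shared.

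Thra, the thyroid hormone receptor α gene, overlaps Nr1d1 tail to tail on the plus strand (mm9 chromosome 11, 98601952 to 98630320). The 2 gene spans share 1075 bases in the table, and 263 of the 3077 exonic bases of Nr1d1 are also exonic in Thra in GENCODE M21. By the labels, libraries were made with a kit that leaves strand unmarked, while the deposited table is named as sense counts, so how reads from this stretch were assigned is not known and both genes are uncertain there. Thra ranged from 2.86 to 21 CPM in KO and from 2.34 to 17.7 CPM in WT, and its group mean was highest at 0 h in KO and at 4 h in WT. Its transcript has 59.8% GC. It passed the rhythm test in KO (edgeR adjusted p = 0.0261) and not in WT (0.170), with peaks at 23.12 ± 1.31 h in KO and 0.32 ± 1.36 h in WT, away from that of Nr1d1. It passed in both with the GC covariate (0.00644 in KO and 0.000301 in WT). Its mean KO minus WT change was −0.14 ± 0.19 (adjusted p = 0.697), and 0.18 ± 0.09 with the GC covariate.

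The genes closest in pattern to each member were sought over the 12 group means of log2 CPM among 10991 genes. Closest to Nr1d1 were Bnip1, which encodes a SNARE protein of the endoplasmic reticulum (r = 0.933), the receptor gene Gpr146 (0.900), Hectd3 and Fbxw9 (0.899 each), genes of ubiquitin ligases, and Tsg101 (0.897), a gene of the ESCRT sorting machinery. Most opposite were the transporter gene Slc16a5 (−0.951), Pppde1 (−0.933) and the chaperone gene Dnajc3 (−0.899). For Nr1d2 the closest were the clock gene Per3 (0.958), Dclre1a (0.950), the peroxisome import gene Pex7 (0.949), Adk (0.948), the gene of adenosine kinase, and Uqcrfs1 (0.947), a subunit of respiratory complex III. Pxmp4 (−0.973) and Tmco3 (−0.971) ran opposite. For Rora the closest were the ubiquitin ligase gene Ube3a (0.989), Gkap1 (0.981), Cggbp1 (0.980), Socs4 (0.974) and Foxn2 (0.968), all between 36.9 and 43.0% GC, close to the 40.9% of Rora. Flad1 (−0.961), Scmh1 (−0.954) and Preb (−0.952), at 50.0 to 53.0% GC, ran opposite. The part of the GC slope in these likenesses was not tested.

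Around the receptors, no gene of their ligand or cofactors passed a genotype test. Of 9 genes of heme metabolism, 0 passed the mean difference by edgeR and 0 by DESeq2, with 2 at an unadjusted p under 0.05, where 1.40% of all genes passed, and the median change was −0.06 against 0.00 for all genes. Among all 13646 genes, 2336 had an unadjusted p under 0.05 in that test and DESeq2 called 356. Alas1, the rate-limiting enzyme of heme synthesis, passed the rhythm test in WT (adjusted p = 0.000917, amplitude 0.87 ± 0.20) and not in KO (0.285, amplitude 0.42 ± 0.21). The rhythm difference of Alas1 did not pass (unadjusted p = 0.193, adjusted 1). Hmox1, which breaks heme down, had the lowest unadjusted p of the list for that difference (0.0027, adjusted 1), with peaks at 16.2 h in KO and 22.8 h in WT, and Alad had 0.0620. The rhythm test passed for 2 of the 9 in KO and 2 in WT, where 17% and 16.3% of all genes passed. With the GC covariate it passed for 4 in KO and 6 in WT, where 21.3% and 29.7% of all genes passed. Of 6 genes of the REV-ERB corepressor complex, 0 passed the mean difference by edgeR or DESeq2 (2 at an unadjusted p under 0.05), at a median change of 0.00, and 0 passed a rhythm test by edgeR, against 1 in KO and 2 in WT both by DESeq2 and with the GC covariate. Over all genes, DESeq2 called 2876 rhythmic in KO and 2701 in WT. The lowest unadjusted rhythm difference p was 0.106 for Hdac3, followed by Tbl1xr1 (0.219), Ncor1 (0.378) and Tbl1x (0.680). Ncor1, which bridges REV-ERBs to HDAC3, averaged 91.7 CPM in KO and 82 CPM in WT, and Hdac3 52.9 CPM in KO and 52.5 CPM in WT.

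Of 8 genes of ROR coactivators, 0 passed the mean difference by edgeR or DESeq2 and 0 had an unadjusted p under 0.05, at a median of −0.03. In the same test 1.40% of all 13646 genes passed by edgeR, 2336 had an unadjusted p under 0.05 and DESeq2 called 356. Ep300, a histone acetyltransferase gene, was among 2 that passed the rhythm test in KO (adjusted p = 0.00687), where 0 passed in WT by edgeR or DESeq2 and 1 had an unadjusted p under 0.05 (3 in KO and 2 in WT passed with the GC covariate). Of all genes, 17% passed in KO and 16.3% in WT (21.3% and 29.7% with the GC covariate). DESeq2 called 2876 genes in KO and 2701 in WT, and 4293 had an unadjusted edgeR p under 0.05 in WT. The rhythm difference of Ep300 had an unadjusted p of 0.0914, and those of Med1, Ppargc1b and Ncoa2 were 0.0544, 0.196 and 0.276. Of 6 genes known to act on the stability of the REV-ERBα protein, 0 passed the mean difference by edgeR or DESeq2 and 0 had an unadjusted p under 0.05, at a median of −0.02. Their lowest rhythm difference p were those of Huwe1 (0.172), Siah2 (0.278), Cdk1 (0.478) and Mycbp2 (0.498), unadjusted, with adjusted values of 1.

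Among the 5 listed clock genes with ROREs, Npas2 was the single one to differ by genotype. Npas2, a partner of BMAL1 that can replace CLOCK, averaged 5.36 CPM in KO and 3.65 CPM in WT. Its KO minus WT log2 change, averaged over the collection times, was 1.67 ± 0.27 (edgeR adjusted p = 0.000373). This value is larger than the CPM averages give. It weighs times of low and high level alike, so it is not the change in mean daily level. The interaction of Npas2 passed (0.0301) and was lost without any of 17 single libraries (up to 0.123) and with the replicate block (0.382). It was also lost without the 3 libraries of unusual content (0.110) and without the 16 h groups (0.119). The rhythm difference of Npas2 did not pass by edgeR (0.146) and did by DESeq2 (0.00177) and with the GC covariate (0.0429). The amplitude of Npas2 was 1.72 ± 0.25 in KO and 3.12 ± 0.25 in WT. Arntl and Cry1 had unadjusted rhythm difference p-values of 0.00276 and 0.0541, and Nfil3 0.598 (adjusted 1 for each). Of the 5, 4 cycled in KO and 4 in WT, where 17% and 16.3% of all genes did, and their median mean change was 0.22. Clock did not pass (0.267 in KO and 0.0761 in WT), but did with the GC covariate (2.32e-05 in KO and 3.29e-06 in WT).

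Among 10 tested genes of 11 listed E-box clock factors, the group that also holds activators of Nr1d1 and Nr1d2, 1 rose (Npas2) and 1 fell, where 1.40% of all genes passed, at a median of −0.08. The gene that fell was Bhlhe40, a repressor at E-boxes, with a mean of 62.2 CPM in KO and 97.3 CPM in WT (−0.65 ± 0.16, edgeR adjusted p = 0.0238). This call was lost without KO_16h replicate 3 (−0.58, 0.0520), with the replicate block (−0.59, 0.0681), with the block and the GC covariate together (0.0528) and with the GC covariate without KO_4h replicate 1 (0.0592), and its size was −0.40 ± 0.10 with the GC covariate. The rhythm test passed for 7 in KO and 6 in WT, against 17% and 16.3% of all genes. With the GC covariate it passed for 10 in each genotype, against 21.3% of all genes in KO and 29.7% in WT. Per3, a member of the repressor arm of the clock, had peaks at 10.33 ± 0.32 h in KO and 11.30 ± 0.32 h in WT. Its unadjusted rhythm difference p was 0.0422, and the adjusted value 1. All 4 D-box factors, Dbp, Tef, Hlf and Nfil3, cycled in both genotypes and 0 passed the mean difference by edgeR or DESeq2, with 0 at an unadjusted p under 0.05 (median −0.09). Under that unadjusted threshold lay 2336 of all 13646 genes, and DESeq2 called 356. Dbp had amplitudes of 2.38 ± 0.28 in KO and 2.69 ± 0.28 in WT, and unadjusted rhythm difference p-values were 0.0737 for Dbp, 0.183 for Hlf and 0.309 for Tef.

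Among metabolic genes known as targets of the receptors, 1 passed the mean difference by edgeR, against 1.40% of all genes, and 2 by DESeq2, Cd36 and Elovl5. Over all 13646 genes, DESeq2 called 356 in that test and 2336 had an unadjusted edgeR p under 0.05. Of 14 REV-ERB targets, 1 rose by edgeR, the fatty acid transporter gene Cd36, at 457 CPM in KO and 275 CPM in WT (0.74 ± 0.14, edgeR adjusted p = 0.00326; 0.55 with the GC covariate, 0.00303), and the median was 0.06. Insig2, which restrains cholesterol synthesis, cycled in both genotypes (adjusted p = 6.46e-06 in KO and 2.54e-07 in WT), with peaks at 21.3 ± 0.5 h in KO and 22.8 ± 0.4 h in WT. G6pc, of glucose release, also cycled in both (0.00981 in KO and 0.00783 in WT). The unadjusted rhythm difference p was 0.0291 for the lipase gene Lpl, 0.0774 for G6pc, 0.0829 for Insig2 and 0.119 for the desaturase gene Scd1, with adjusted values of 1. Of 7 ROR targets, 0 passed the mean difference by edgeR or DESeq2, with 1 at an unadjusted p under 0.05 (median −0.01). The rhythm test passed for 0 in KO by edgeR or DESeq2, with 2 at an unadjusted p under 0.05, where 17% of all genes passed. In that test 4681 of all 13646 genes had an unadjusted p under 0.05, and DESeq2 called 2876. In WT it passed for 3, Apoa5, Fgf21 and Cyp7b1, where 16.3% of all genes passed. The difference in rhythm did not pass for any, with unadjusted p of 0.394 for Apoa5, 0.529 for Fgf21, 0.0616 for the oxysterol hydroxylase gene Cyp7b1 and 0.214 for Sult1e1.

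Among 32 other nuclear receptor genes, 10 passed the rhythm test in KO and 9 in WT, against 17% and 16.3% of all genes. With the GC covariate 12 passed in KO and 13 in WT, against 21.3% and 29.7% of all genes. The mean difference passed for 0 by edgeR (6 at an unadjusted p under 0.05, median −0.05), against 1 by DESeq2, Nr4a1. Of all 13646 genes, 1.40% passed by edgeR, 2336 had an unadjusted p under 0.05 and DESeq2 called 356. Nr4a1, an immediate early receptor gene, passed the rhythm test in WT (adjusted p = 6.24e-05, amplitude 1.55 ± 0.33) and not in KO (0.524, amplitude 0.52 ± 0.34), and had the lowest rhythm difference p of the list (0.000789 unadjusted, 0.865 adjusted). Pparg, a receptor of fat storage, cycled in both genotypes with amplitudes of 0.79 ± 0.10 in KO and 0.51 ± 0.10 in WT. Its unadjusted rhythm difference p was 0.0798, and the adjusted value 1. Those of Nr6a1 and of Nr1h3, the gene of LXRα, were 0.0342 and 0.127.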

How the data were processed

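Liver RNA of 48 mice was sequenced after poly-A selection (TruSeq, 13 PCR cycles, 2 libraries per lane, per the labels' protocols). The authors deposited whole-number counts per gene, and CASAVA, STAR 2.4.1d and mm9 are named in the submitters' processing notes. For the counting rule and annotation, the sources used here give nothing. Totals without Alb, a scaled value left out here, were 12841969 to 13009797, and how they came to be equal is not given. No column of another sample was present. No 2 libraries of a group agreed within sampling noise.

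Groups and replicate numbers came from the labels. edgeR 4.0.16 (R 4.3.3) kept 13646 genes (minimum count 10, minimum total 15, removing 8707), scaled them by TMM and fitted 12 group means, and 24 h harmonics per genotype, with quasi-likelihood F tests and Benjamini-Hochberg adjustment over all genes at 0.05. Amplitudes and peaks came from least squares on log2 CPM with a prior count of 2. Correlations used 100000 shuffles within groups. GC content was that of the longest GENCODE M21 transcript, available for 97.6% of tested genes. Alternatives were another scaling (RLE), DESeq2 1.42.0, no filter, a replicate block, omitted libraries or times, a 12 h harmonic, a prior count of 0.5 and, added after the data were seen, GC terms. The fits were also run on simulated counts, and the outcome is not reported here. In these counts the genes varied independently and the libraries had no GC trend, so the run does not cover the GC slope.

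The members and lists were chosen with earlier results of these data known. Besides the members and Thra, the text names the 5 most alike and 3 most opposite genes of each, list genes that passed a genotype test, and up to 4 per list by lowest rhythm difference p, plus genes shown for peak time. Ciart was not found under that symbol. The values of some genes that this rule names are not reported here. Of 23 pairs of a KO and a WT mouse with the same number and time, 13 had deviations that correlated above 0.1 (range −0.361 to 0.542). All 4 pairs at 4 h did (0.231 to 0.460). Single pairs are described only for 4 h, while the replicate block used the numbers at every time. The numbers come from the labels, and what they stand for is not given. P-values rest on the spread between separate mice.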

Additional observations from a re-analysis of the deposited data

Results flagged for a closer look

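Of 33 combinations of a member and a group with 4 or 5 mice, 2 were flagged by Dixon's test on CPM. In these, a mouse lay apart from its group by a gap above the critical value. For normally distributed values chance gives about 1 in 20, and 2 of 33 is close to that share. The gaps were not tested on the log2 scale. Nr1d1 was at 116 CPM in KO_4h replicate 1 while the other 3 mice of that group lay between 5.18 and 16.9 CPM (gap 0.894 of the range, critical value 0.829). Its library had a GC slope of 0.49. Nr1d2 was at 80.5 CPM in WT_20h replicate 2 while the other 3 lay between 29.3 and 35.1 CPM (gap 0.887), and its library had a GC slope of −0.60.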

How the results depend on the processing

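Both REV-ERB genes passed the rhythm test in both genotypes under every alternative run, with adjusted p up to 0.00385 without 1 library, and no member passed the mean difference, the interaction or the rhythm difference in any. The values below either turned sign, crossed the threshold or moved a count by over 1.5 times, and the cause was not tested. Log2 changes that turned sign passed in no setting.

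With RLE scaling 5 genes were called at 0 h. By DESeq2 the Nr1d2 step in WT from 0 to 4 h was 1.69 and passed, and 356 genes were called over the day, 10 at 0 h, 192 at 4 h, 2 at 8 h, 3 at 12 h, 17 at 16 h, 7 by the interaction and 5 by the rhythm difference. Without the low-count filter the counts were 122 over the day, 10 at 0 h, 2 at 4 h, 1 at 12 h and 0 at 16 h. With 24 h and 12 h harmonics the rhythm difference called 0 genes. The replicate block paired same-numbered mice of a time in the group tests. In the rhythm tests it was a term per replicate number, shared by all times and both genotypes. With the block, Nr1d2 was at 0.00 over the day and −0.17 at 16 h, and Rora at 0.18 at 12 h. It called 0 genes at 0 h, 2 at 4 h, 0 at 16 h and 0 by the interaction. The block changed no call of a member in the tests between genotypes or of rhythm. Steps between times were not run with it.

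Without WT_0h replicate 3, KO_0h replicate 2 and KO_16h replicate 2, chosen from earlier results, the Nr1d1 step in WT from 0 to 4 h was 4.11 and did not pass, Nr1d2 at 16 h was −0.05, Rora was −0.02 at 0 h and 0.00 at 12 h, Arntl and Nr1d1 had r = −0.01, and the counts were 303 over the day, 8 at 0 h, 8 at 4 h, 0 at 16 h and 0 for the interaction. With WT_16h replicate 5 left out in place of KO_16h replicate 2, an alternative added after the data were seen, these were 4.12 for the step, −0.11 for Nr1d2 at 16 h and 0.00 for Rora at 12 h, with 0 genes at 0 h, 1 at 4 h, 0 at 16 h and 0 for the interaction. Without both 16 h groups Rora at 12 h was 0.00 and 1 gene was called at 0 h, 543 at 4 h and 1 at 12 h.

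The GC terms were also added after the data were seen. With the covariate, 4 steps of Nr1d1 (2.70, −2.45, −2.29 and −1.75) and 2 of Nr1d2 (1.71 and −1.15) newly passed. Nr1d2 was −0.12 over the day and −0.27 at 16 h, Rora −0.07 over the day, −0.05 at 4 h and −0.04 at 16 h with a WT rhythm p of 0.0209, and Thra 0.18. Genes called were 10 at 0 h, 0 at 4 h, 13 at 16 h, 4 by the interaction, 4051 rhythmic in WT and 3 by the rhythm difference. With the covariate and without KO_4h replicate 1, the same steps were 2.62, −2.43, −2.29, −1.73, 1.72 and −1.16, Nr1d2 was −0.12 and −0.26, Rora −0.09, −0.11 and −0.04 with 0.0263, and Thra 0.20. The counts were 11 at 0 h, 1 at 4 h, 14 at 16 h, 6, 3985 and 2. With a GC offset, Nr1d2 was −0.06 over the day, −0.17 at 16 h and 1.67 for the WT step, which passed, Rora −0.01 and Thra 0.08, with 9 genes at 0 h and 1 at 12 h. With the replicate block and the GC covariate together, Nr1d2 was −0.17 and −0.39, Rora −0.09, −0.07 and −0.10 with a WT rhythm p of 0.0149, and Thra 0.23, with 7 genes at 0 h, 1 at 4 h, 1 at 12 h, 1 at 16 h, 0 for the interaction, 3848 rhythmic in WT and 2 for the rhythm difference. With the GC slope removed, r was 0.58 for Nr1d1 with Nr1d2, 0.47 for Nr1d1 with Rora, −0.37 for Arntl with Nr1d1 and −0.26 for Arntl with Rora.

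Leaving out 1 library at a time, Nr1d1 ranged from −2.97 to −0.59 at 4 h, from −0.71 to 0.03 at 8 h and from 3.69 to 5.06 for the WT step from 0 to 4 h. Nr1d2 ranged from −0.01 to 0.33 at 0 h, 0.74 to 1.21 at 4 h, −0.39 to 0.13 at 12 h, −0.09 to 0.21 at 16 h, −0.85 to 0.02 at 20 h, −0.01 to 0.13 over the day and 1.64 to 1.76 for the WT step. Rora ranged from −0.07 to 0.18 at 0 h, −0.24 to 0.33 at 12 h and −0.51 to 0.16 at 20 h. The r of Arntl and Nr1d1 ranged from −0.02 to 0.11 and that of Nr1d1 and Nr1d2 from −0.45 to −0.33. Genes called ranged from 0 to 9 at 0 h, 0 to 3354 at 4 h, 0 to 1 at 8 h, 0 to 2 at 12 h, 0 to 25 at 16 h, 99 to 484 over the day, 0 to 3 by the interaction, 1 to 2 by the rhythm difference and 1628 to 3691 rhythmic in KO. At these depths the lowest value of Nr1d1 rested on 2 counts.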
